A study of Mus musculus with 15 samples.

Results

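The genes that write, maintain and remove cytosine methylation were examined in mouse embryonic stem cells with a knockout of Taf5l, Taf6l or Myc. The set was chosen by symbol, with earlier results of these data known. It holds 9 of the 37310 genes in the deposited count table: Dnmt1, Uhrf1, Dnmt3a, Dnmt3b, Dnmt3l, Tet1, Tet2, Tet3 and Tdg. Each symbol matched 1 row, and all 9 passed the filter on low counts in both experiments. The cells were of the J1 line, a male embryonic stem cell line, grown in 15% serum with 1000 U/ml of leukaemia inhibitory factor (LIF). In a first experiment Taf5l knockout (Taf5l-KO) and Taf6l knockout (Taf6l-KO) cells were set against a shared wild-type J1 control (WT-Taf), and in a second, Myc knockout (cMyc-KO) cells against another wild-type J1 control (WT-Myc), with 3 libraries in each of 5 groups. TAF5L and TAF6L belong to SAGA, a coactivator that modifies chromatin, whereas MYC binds DNA and drives genes of cell growth.

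DNMT1 copies methylation onto the new DNA strand after replication, guided by UHRF1, which binds half-methylated sites. DNMT3A and DNMT3B methylate unmodified DNA, and DNMT3L, which has no catalytic activity of its own, stimulates them and is abundant in embryonic stem cells. TET1, TET2 and TET3 oxidise methylated cytosine, and TDG removes some of the oxidised bases so that repair can restore cytosine.

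The labels do not say whether replicates were separate cultures or clones, and the descriptions of the cMyc-KO libraries share a code of unstated meaning, so the p-values rest on variation among libraries that may be technical. Library totals were 14935631 to 27650813 counts. Each targeted gene was lower in its own knockout but kept RNA: Taf5l was at 42.5 CPM (estimated counts relative to the scaled total of the library) in Taf5l-KO against 86.0 in WT-Taf, Taf6l at 6.59 in Taf6l-KO against 26.1 in WT-Taf, and Myc at 29.2 in cMyc-KO against 66.8 in WT-Myc. Both Taf knockouts had less Myc RNA as well, by log2 fold changes of -0.69 in Taf5l-KO and -0.83 in Taf6l-KO. Taf6l RNA was also lower in Taf5l-KO, at 20.5 CPM (log2 fold change -0.35), whereas Taf5l was at 89.7 CPM in Taf6l-KO (0.06). All 10 embryonic stem cell markers were above 1 CPM in every group, and their summed level was 4770 to 4903 CPM in Taf5l-KO, 4717 to 4813 in Taf6l-KO and 5358 to 5458 in WT-Taf, and 7192 to 7545 in cMyc-KO against 6670 to 6865 in WT-Myc. Replicate 3 of cMyc-KO stood apart from the others of its group (chi-square per degree of freedom 36.4 and 26.3 against them, and 5.07 between those others). Markers of other cell types were low beside these. The 8 endoderm markers summed to at most 122 CPM in Taf5l-KO and 141 in Taf6l-KO, against 89.3 in WT-Taf, and to at most 112 in cMyc-KO against 159 in WT-Myc. The 7 neuroectoderm markers summed to at most 59.1 CPM in Taf5l-KO and 70.2 in Taf6l-KO, against 87.4 in WT-Taf, and to at most 94.1 in cMyc-KO against 123 in WT-Myc. The 7 trophectoderm markers reached 55.1, 54.0 and 49.5 CPM in Taf5l-KO, Taf6l-KO and WT-Taf, and 80.3 in cMyc-KO against 56.1 in WT-Myc, while 8 mesoderm and 8 feeder fibroblast markers summed to 13.2 CPM at most in any library. The part of such cells in the differences below was not tested. In bulk RNA, fewer cells with a transcript and less transcript per cell cannot be told apart.

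Promoter windows are shown for Dnmt3l, the member with the largest rise in both Taf knockouts, and Tet1, the member with the largest fall. Windows of Dnmt3a and Tdg, the other members with a MYC motif, are shown because they hold it. Those of Uhrf1, Dnmt3b, Tet2, Dnmt1 and Tet3 are not printed. Each is 300 bases, from 250 before to 50 after an annotated start, from RefSeq on GRCm38.p6, printed 5′ to 3′ on the gene's strand. Capitals mark every CG, the dinucleotide these enzymes act on, and the E-box CACGTG, a palindrome bound by MYC with its partner MAX, which itself holds a CG.
Dnmt3l, chr10:78049592-78049891, plus strand: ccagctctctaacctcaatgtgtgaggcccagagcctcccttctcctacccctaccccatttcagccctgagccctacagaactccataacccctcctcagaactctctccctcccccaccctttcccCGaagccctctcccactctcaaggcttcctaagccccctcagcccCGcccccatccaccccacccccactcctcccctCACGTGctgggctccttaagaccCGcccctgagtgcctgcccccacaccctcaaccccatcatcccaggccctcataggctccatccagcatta
Dnmt3a, chr12:3891494-3891793, plus strand: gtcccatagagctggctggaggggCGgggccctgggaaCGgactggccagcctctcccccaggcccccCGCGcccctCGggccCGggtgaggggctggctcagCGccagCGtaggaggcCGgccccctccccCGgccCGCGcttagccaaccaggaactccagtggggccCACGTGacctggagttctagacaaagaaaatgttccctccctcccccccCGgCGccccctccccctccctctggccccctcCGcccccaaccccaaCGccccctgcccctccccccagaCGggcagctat
Tdg, chr10:82629588-82629887, plus strand: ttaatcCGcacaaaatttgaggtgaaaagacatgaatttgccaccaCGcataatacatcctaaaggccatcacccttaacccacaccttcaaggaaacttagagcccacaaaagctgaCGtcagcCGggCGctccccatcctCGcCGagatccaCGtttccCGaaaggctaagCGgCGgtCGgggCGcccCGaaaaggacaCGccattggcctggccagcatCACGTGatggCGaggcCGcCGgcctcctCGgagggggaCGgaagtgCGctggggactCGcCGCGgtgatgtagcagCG
Tet1, chr10:62887275-62887574, minus strand: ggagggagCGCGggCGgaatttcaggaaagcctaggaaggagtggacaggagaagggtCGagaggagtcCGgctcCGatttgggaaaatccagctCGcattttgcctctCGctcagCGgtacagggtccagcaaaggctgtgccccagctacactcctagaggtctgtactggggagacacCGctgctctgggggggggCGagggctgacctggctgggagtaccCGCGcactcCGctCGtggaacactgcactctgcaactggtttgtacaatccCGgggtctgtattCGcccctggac
The E-box starts at base 207 of this Dnmt3l window, base 171 of this Dnmt3a window and base 223 of the Tdg window, and is not in the Tet1 window. Of 16 windows of the 9 genes, 3 hold it, and 7.15% of 32851 RefSeq windows of the same length do (either strand). The printed Dnmt3l window holds 4 CGs, the printed Dnmt3a window 18, the Tdg window 26 and the Tet1 window 17, against a median of 7 over all windows. For Dnmt3l and Dnmt3a the window printed is the one with the E-box. The other Dnmt3a windows hold 46 and 47 CGs, the other Dnmt3l windows 6 and 3, and none of these holds the E-box. A match describes these letters and does not show binding. Of the genes with the E-box, Dnmt3l and Tdg were called higher in cMyc-KO, the Tdg call being lost under several settings. Dnmt3a was not called there (log2 fold change 0.01).

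**Figure D1:**
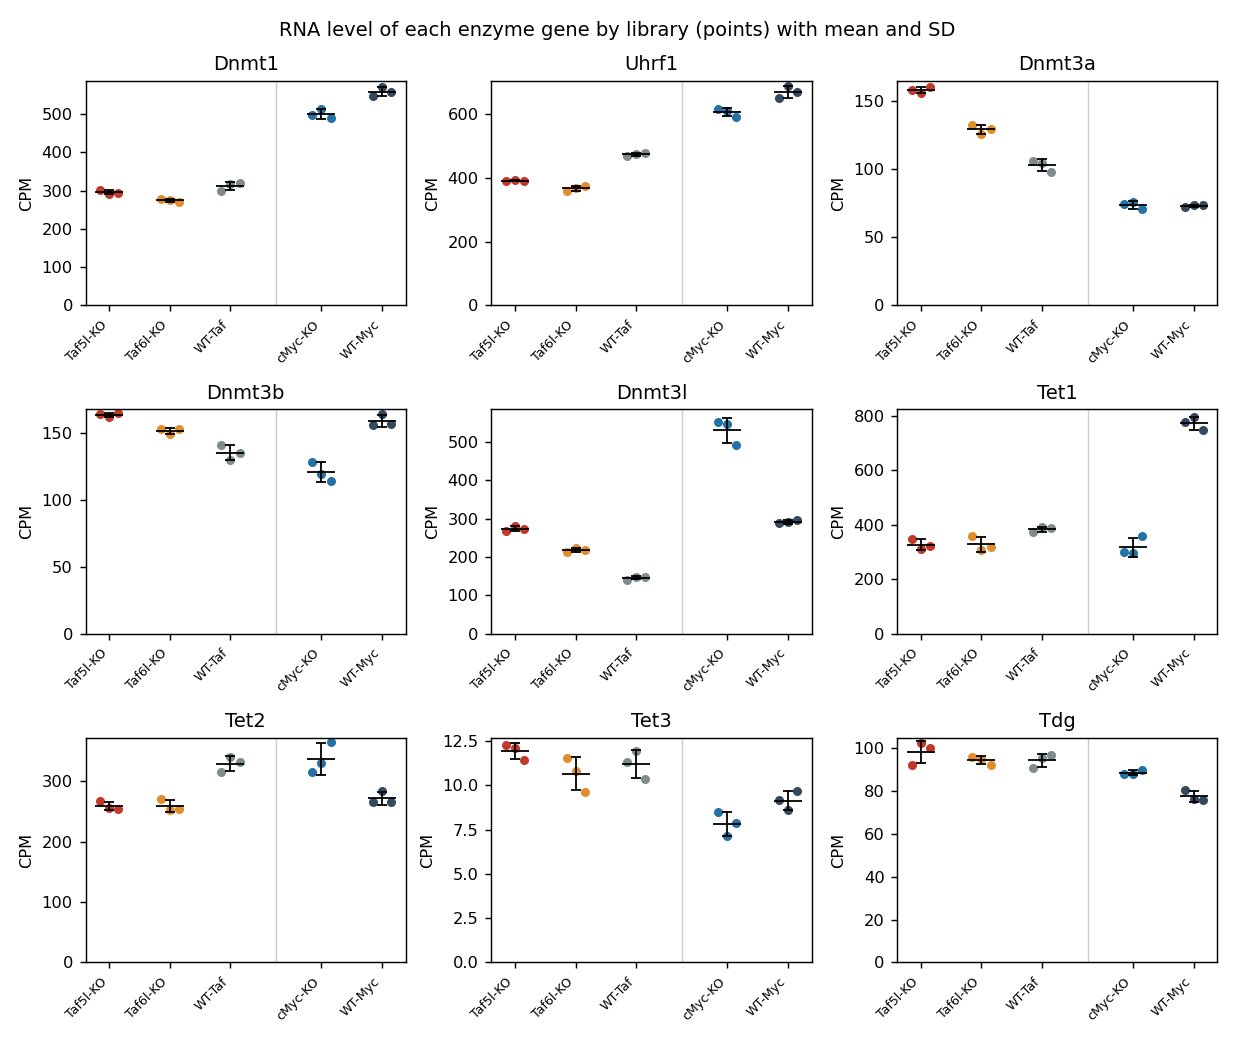
RNA level (CPM, axis from 0) of the 9 genes by library, with the mean and SD of 3 libraries per group; the Taf experiment is left of the line and the Myc experiment right of it. Dnmt3l is higher in the libraries of all 3 knockouts than in their own controls, and Tet1 in cMyc-KO lies between 296 and 358 CPM, below every WT-Myc library.

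In Taf5l-KO cells the de novo genes Dnmt3l, Dnmt3a and Dnmt3b rose and Uhrf1, Tet1 and Tet2 fell, and the same genes were called in the same direction in Taf6l-KO, where Dnmt1 also fell. Counts were tested with edgeR's quasi-likelihood test, and a gene is called where its Benjamini-Hochberg adjusted p over all genes tested is under 0.05. In Taf5l-KO 3 of the 9 genes were higher and 3 lower, against 33.2% of all 15743 genes tested called in either direction (17.4% higher and 15.9% lower). In Taf6l-KO 3 were higher and 4 lower, against 37.2% of all genes called (19.1% higher and 18.2% lower). In cMyc-KO 3 were higher and 4 lower, against 34.8% of 14563 genes called (15.2% higher and 19.5% lower). Dnmt3l was called higher in all 3 knockouts, and Uhrf1 and Tet1 were called lower in all 3. Both Taf knockouts were compared with the same control libraries, so their values are not independent of each other.

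**Figure D2:**
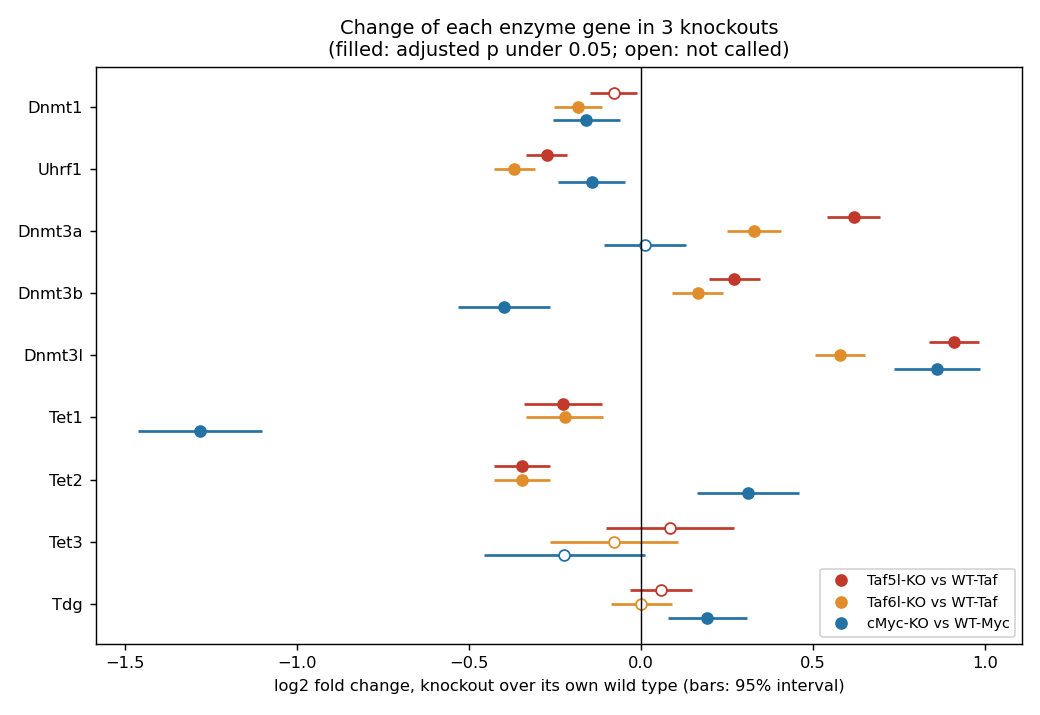
log2 fold change of each gene, knockout over its own wild type, with its 95% interval; filled points are called and open points are not. Dnmt3b and Tet2 lie on opposite sides of 0 in the Taf knockouts and in cMyc-KO.

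The maintenance genes were lower by small amounts, except that Dnmt1 was not called in Taf5l-KO. In cMyc-KO the calls of both were lost under several settings. Uhrf1 was at 391, 394 and 391.8 CPM in Taf5l-KO, at 359.5, 369.6 and 374 CPM in Taf6l-KO and at 470.0, 475 and 478 CPM in WT-Taf. Neither knockout overlapped the control, as for 44.7% of all genes tested in Taf5l-KO and 49.0% in Taf6l-KO. The log2 fold change was -0.27 ± 0.028 (SE; adjusted p = 4.30e-06) in Taf5l-KO and -0.37 ± 0.028 (adjusted p = 1.72e-07) in Taf6l-KO. In cMyc-KO Uhrf1 was at 618, 610.3 and 593 CPM, against 652, 688 and 671 CPM in WT-Myc. These groups did not overlap either, as for 49.6% of all genes tested, and the log2 fold change was -0.14 ± 0.042 (adjusted p = 0.0328). That call was lost without any 1 of the 6 libraries (adjusted p 0.0573 to 0.145) and in DESeq2 (-0.12, adjusted p = 0.111).

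Dnmt1 was at 300.5, 290.3 and 295 CPM in Taf5l-KO, at 277, 276 and 271 CPM in Taf6l-KO and at 299, 317 and 319 CPM in WT-Taf. Taf5l-KO overlapped the control and was not called (log2 fold change -0.079 ± 0.032, adjusted p = 0.0757), although without replicate 1 of WT-Taf it was (-0.11, adjusted p = 0.0264). Taf6l-KO lay below all controls, with a log2 fold change of -0.18 ± 0.032 (adjusted p = 0.000469). In cMyc-KO Dnmt1 was at 498, 514 and 489 CPM, against 547, 571 and 557 CPM in WT-Myc. The groups did not overlap and the log2 fold change was -0.16 ± 0.042 (adjusted p = 0.0217). The call was lost without replicate 1 or 2 of cMyc-KO or replicate 2 or 3 of WT-Myc (adjusted p 0.0641 to 0.0886) and in DESeq2 (-0.13, adjusted p = 0.0595).

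Among the de novo genes, Dnmt3l gave the largest difference in both Taf knockouts. It was at 269, 280.2 and 273 CPM in Taf5l-KO, at 212, 224 and 219 CPM in Taf6l-KO and at 141, 149 and 148 CPM in WT-Taf. All knockout libraries lay above all controls, with log2 fold changes of 0.91 ± 0.034 (88.0% higher, adjusted p = 4.31e-10) in Taf5l-KO and 0.58 ± 0.034 (49.5% higher, adjusted p = 1.54e-08) in Taf6l-KO. In cMyc-KO it was at 551, 546 and 492 CPM, against 288, 290.2 and 297 CPM in WT-Myc. The groups again did not overlap, and the log2 fold change was 0.86 ± 0.054 (81.7% higher, adjusted p = 3.58e-05). Of the 10 tested genes nearest to Dnmt3l, 5 were called higher and 1 lower in Taf5l-KO, and 3 higher and 0 lower in Taf6l-KO. In cMyc-KO 4 were higher and 3 lower. Over all genes tested, 17.4%, 19.1% and 15.2% were higher and 15.9%, 18.2% and 19.5% lower, in that order. The genes directly on either side of Dnmt3l in the annotation moved with it. Aire, a regulator of thymic gene expression, had log2 fold changes of 0.90, 0.65 and 0.89 in Taf5l-KO, Taf6l-KO and cMyc-KO, and Icosl, a T cell costimulatory ligand, had 0.77, 0.58 and 0.81, with all 6 values called. Whether their reads and those of Dnmt3l have a common origin was not tested.

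Dnmt3a was at 158, 156 and 160.3 CPM in Taf5l-KO, at 132, 126 and 129 CPM in Taf6l-KO and at 106, 105 and 97.8 CPM in WT-Taf. The 3 groups did not overlap, and the log2 fold change was 0.62 ± 0.036 (adjusted p = 1.99e-08) in Taf5l-KO and 0.33 ± 0.036 (adjusted p = 6.96e-06) in Taf6l-KO. In cMyc-KO it was at 74.8, 75.8 and 70.7 CPM, against 72.1, 73.4 and 73.9 CPM in WT-Myc. These groups overlapped, and the log2 fold change of 0.01 had a 95% interval of -0.11 to 0.13.

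Dnmt3b was at 164, 162 and 165 CPM in Taf5l-KO, at 153, 149 and 153 CPM in Taf6l-KO and at 141, 129.8 and 135 CPM in WT-Taf. Both knockouts lay above the control, with log2 fold changes of 0.27 ± 0.034 (adjusted p = 2.97e-05) and 0.17 ± 0.034 (adjusted p = 0.00159). The Taf6l-KO call was lost in limma on the authors' FPKM (0.12, adjusted p = 0.103). In cMyc-KO it was at 128, 119.6 and 114 CPM, against 156, 164 and 157 CPM in WT-Myc, so every knockout library lay below every control. The log2 fold change was -0.40 ± 0.058 (adjusted p = 0.00156).

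Tet1, which oxidises methylated cytosine and is the most abundant Tet transcript per length in WT-Myc by CPM per kilobase and by FPKM, gave the largest difference of the set. It was at 299, 296 and 358 CPM in cMyc-KO, against 777, 795 and 747 CPM in WT-Myc. The groups lay far apart, with a log2 fold change of -1.28 ± 0.078 (adjusted p = 3.13e-05), or 41.1% of the control level. In the Taf experiment Tet1 was at 349, 309.8 and 324 CPM in Taf5l-KO, at 359, 309 and 318 CPM in Taf6l-KO and at 373, 390.3 and 386 CPM in WT-Taf. Both knockouts lay below the control without overlap, with log2 fold changes of -0.23 ± 0.053 (adjusted p = 0.00432) and -0.22 ± 0.053 (adjusted p = 0.00434). Both calls were lost in limma on log2(FPKM + 1), at -0.20 (adjusted p = 0.0703) in Taf5l-KO and -0.18 (adjusted p = 0.0916) in Taf6l-KO.

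The genes around Tet1 on chromosome 10 were also lower in cMyc-KO. Over all genes tested, 15.9% were called lower in Taf5l-KO, 18.2% in Taf6l-KO and 19.5% in cMyc-KO. In Taf5l-KO and in Taf6l-KO 5 of its 10 nearest tested genes were called lower. In cMyc-KO, of the 10 nearest tested genes, 8 were called lower and 1 higher, with a median log2 fold change of -0.83, against a median of -0.02 over 650 tested genes of the chromosome. Around each of the other 8 members, 0 to 3 of 10 neighbours were called lower in cMyc-KO, and the medians were -0.17 to 0.15. The stretch had edges on both sides. From Mcm9, 53 tested genes before Tet1, to Dnajc12, 9 genes after it, 53 of 62 genes other than Tet1 were called lower and 2 higher, with a median of -0.86. In the 17 genes before that stretch 4 were lower and 3 higher (median 0.01), and in the 31 genes after it 3 were lower and 7 higher (median 0.02). These limits were chosen after the values were seen. Within the stretch Tet1 ranked 12 of 63 from the lowest and was 0.42 below the median of the others on the log2 scale (difference -0.42). The stretch also holds Nodal, a ligand of the TGF-beta family (-1.29), Ddx21, an RNA helicase of ribosome production (-1.05), Hnrnph3 (-1.06) and Sirt1, a protein deacetylase (-0.46).

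By library, the median over the stretch relative to the mean of the controls was -0.84, -0.88 and -0.77 on the log2 scale in the cMyc-KO libraries, and 0.01, 0.01 and -0.03 in the WT-Myc libraries. All 3 cMyc-KO libraries therefore shared the difference. In Taf5l-KO 21 of the 62 genes were lower and 6 higher (median -0.12), and in Taf6l-KO 21 were lower and 7 higher (median -0.11), beside 17.4% and 19.1% of all genes called higher in Taf5l-KO and Taf6l-KO. DNA was not measured, so fewer copies of the stretch in the cMyc-KO cells and less RNA per copy cannot be told apart. The same holds for every Tet1 value of cMyc-KO, including its ratio to Tet2 and the difference between the Taf and Myc effects. Neighbours of genes other than the members were not examined, so the same limit applies to falls of such genes in cMyc-KO named below.

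**Figure D3:**
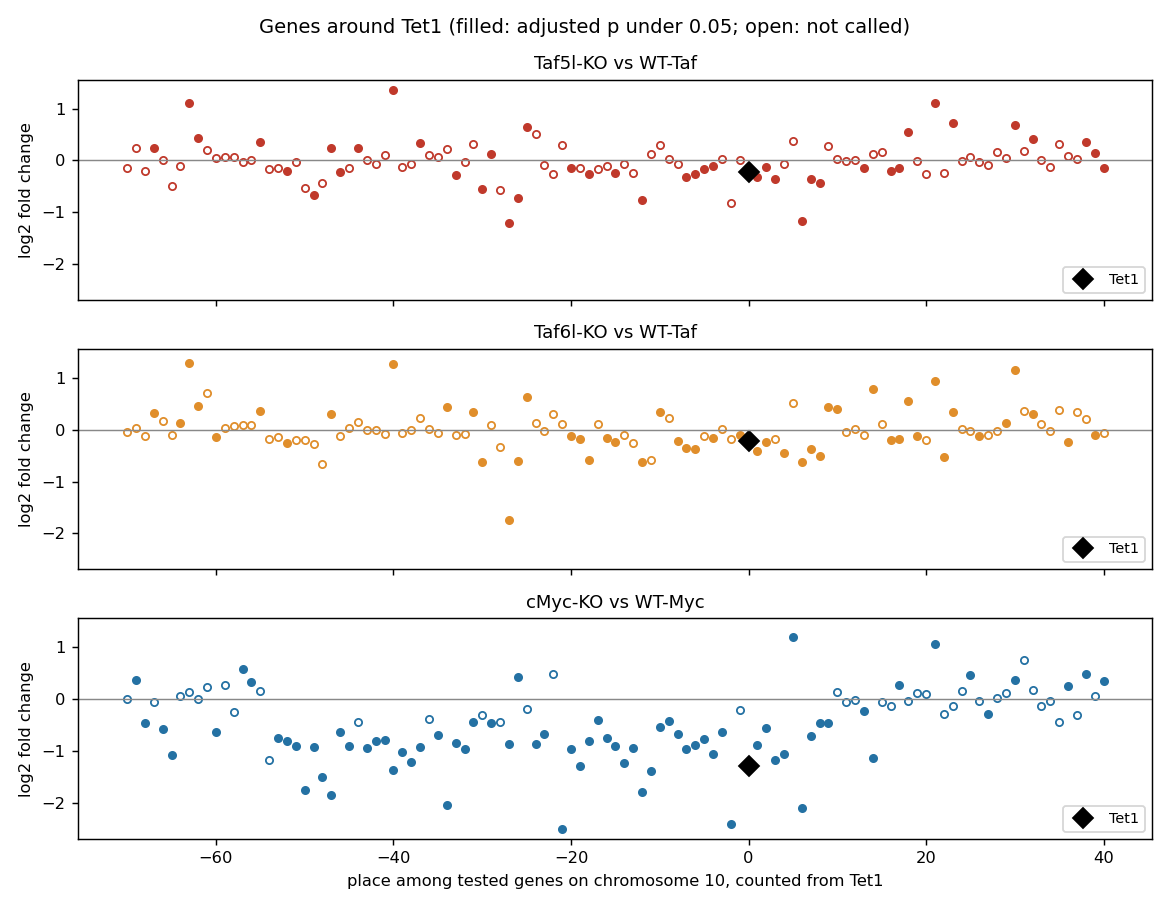
log2 fold change, knockout over wild type, of tested genes around Tet1 (diamond) on chromosome 10, in gene order from 70 before to 40 after; filled points are called. In cMyc-KO a run of lower genes (median -0.86) ends 9 genes after Tet1.

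Tet2 moved in opposite directions in the experiments. It was at 267, 255 and 254 CPM in Taf5l-KO, at 270.4, 251 and 254 CPM in Taf6l-KO and at 315, 339.6 and 331 CPM in WT-Taf. Neither knockout overlapped the control, and the log2 fold changes were -0.35 ± 0.038 in both (adjusted p = 8.74e-06 in Taf5l-KO and 6.61e-06 in Taf6l-KO). In cMyc-KO it was at 315, 331 and 366 CPM, against 265, 283 and 266 CPM in WT-Myc, all knockout libraries above all controls. The log2 fold change was 0.31 ± 0.064 (adjusted p = 0.00734).

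Tet3 was scarce, with 153 to 256 counts per library. It averaged 11.9 ± 0.458 CPM in Taf5l-KO, 10.7 ± 0.953 in Taf6l-KO and 11.2 ± 0.795 in WT-Taf (SD, n = 3 each), which overlapped. In cMyc-KO it was at 8.48, 7.13 and 7.88 CPM, against 9.14, 8.60 and 9.68 CPM in WT-Myc. These did not overlap, but the log2 fold change of -0.22 ± 0.101 was not called (adjusted p = 0.127). The 95% interval was -0.10 to 0.27 for Taf5l-KO, -0.26 to 0.11 for Taf6l-KO and -0.46 to 0.01 for cMyc-KO.

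Tdg averaged 98.2 ± 5.21 CPM in Taf5l-KO, 94.4 ± 1.94 in Taf6l-KO and 94.4 ± 3.11 in WT-Taf (SD, n = 3 each), with overlap and no call. Their 95% intervals were -0.03 to 0.15 and -0.09 to 0.09 on the log2 scale. In cMyc-KO it was at 88.0, 88.1 and 89.8 CPM, against 80.4, 76.2 and 75.9 CPM in WT-Myc. All knockout libraries lay above the controls, and the log2 fold change was 0.19 ± 0.050 (adjusted p = 0.0197). The call was lost without replicate 2 of cMyc-KO or replicate 2 or 3 of WT-Myc (adjusted p 0.0536 to 0.0871).

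The differences between knockouts were tested directly. In Taf6l-KO against Taf5l-KO 5 of the 9 genes were lower and none higher, against 18.7% of all genes called (8.55% higher and 10.1% lower). Dnmt3l was lower by a log2 difference of -0.33 ± 0.033 (adjusted p = 2.45e-05) and Dnmt3a by -0.29 ± 0.035 (adjusted p = 9.43e-05), so both rose less in Taf6l-KO. Dnmt3b (-0.11, adjusted p = 0.0398), Dnmt1 (-0.10, 0.0367) and Uhrf1 (-0.094, 0.0307) were lower by less. The libraries of these 5 genes did not overlap, as for 34.7% of all genes tested. Without single libraries the calls of Dnmt1 and Dnmt3b were lost in all 6 cases, and that of Uhrf1 without any of the 3 Taf6l-KO libraries or without replicate 2 of Taf5l-KO (adjusted p 0.053 to 0.105). The Uhrf1 call was also lost without a filter (adjusted p = 0.0573), and that of Dnmt3b in DESeq2 (-0.11, adjusted p = 0.0614). The calls of Dnmt3b, Dnmt1 and Uhrf1 were lost when libraries were scaled by their totals (adjusted p = 0.821, 0.845 and 0.977), a scaling under which 83.1% of all calls in this comparison were higher, against 45.8% here. For Tet1 and Tet2 the 95% intervals of the difference were -0.11 to 0.12 and -0.08 to 0.08.

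The mean effect of the Taf knockouts was also set against the effect of the Myc knockout, where 35.3% of 16286 genes were called (16.9% higher and 18.4% lower). Tet1 (1.02 ± 0.090), Dnmt3b (0.57 ± 0.065) and Dnmt3a (0.42 ± 0.060) had higher effects in the Taf knockouts. Tet2 (-0.70 ± 0.066), Uhrf1 (-0.22 ± 0.048) and Tdg (-0.21 ± 0.057) had lower ones. For Dnmt3l the difference of -0.16 ± 0.064 was not called (adjusted p = 0.0677), but it was without replicate 3 of cMyc-KO (-0.22, adjusted p = 0.00121). Dnmt1 (-0.01, 95% interval -0.12 to 0.09) and Tet3 (0.19, -0.07 to 0.45) were not called. Each effect is relative to its own control libraries, so the experiment and the gene removed cannot be told apart in these differences.

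Levels were compared between genes per length, as CPM per kilobase of the longest principal transcript. Dnmt3l stood first in all 3 knockouts, at 150.5 ± 3.13 in Taf5l-KO, 119.7 ± 3.39 in Taf6l-KO and 291 ± 18.1 in cMyc-KO, and second in both controls, at 80.1 ± 2.25 in WT-Taf and 160.0 ± 2.50 in WT-Myc (SD, n = 3 each). Uhrf1 stood first in the controls, at 132 ± 1.10 in WT-Taf and 187 ± 5.07 in WT-Myc. Dnmt1 followed them in every group, and Dnmt3a and then Tet3, at 1.32 to 2.01, came last. Tet1 stood in cMyc-KO at 22.1 ± 2.44, below Tet2 at 36.7 ± 2.83, and in WT-Myc at 53.8 ± 1.70, above Tet2 at 29.6 ± 1.11. In the Taf experiment Tet1 was below Tet2 in all 3 groups in CPM per kilobase. Neighbours in the order whose libraries overlapped were Tet2 and Tdg in Taf5l-KO, and Tdg and Tet1 in WT-Taf. The order depends on the transcript length and turns for several genes in the authors' FPKM. In FPKM Tet1 was above Tet2 in every group, at 196 ± 13.2 against 56.5 ± 1.17 in Taf5l-KO, 199 ± 13.6 against 56.4 ± 2.19 in Taf6l-KO, 225 ± 1.27 against 72.2 ± 2.55 in WT-Taf, 181 ± 8.02 against 67.9 ± 5.23 in cMyc-KO and 458 ± 18.1 against 53.0 ± 2.02 in WT-Myc. Dnmt3a was above Dnmt1 in FPKM in every group, at 479 ± 15.3 against 56.3 ± 0.646 in Taf6l-KO, for example. The places of Dnmt3l, Uhrf1 and Tet3 were the same by both measures. The authors' FPKM imply a length for Dnmt3a of 0.280 kb, against 9.69 kb for that transcript.

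**Figure D4:**
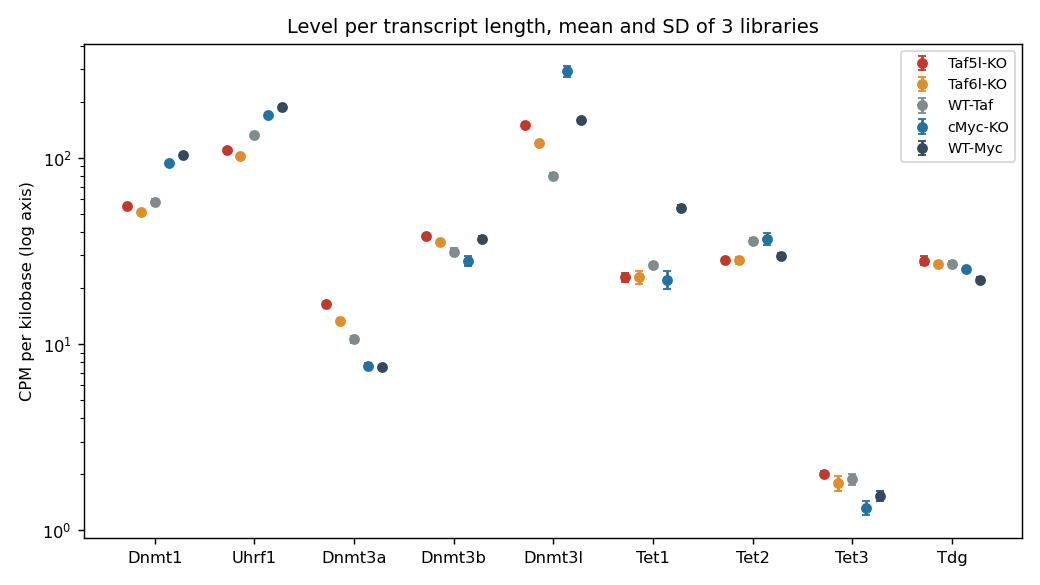
CPM per kilobase of the principal transcript (log axis) for each gene and group, mean and SD of 3 libraries. Dnmt3l is above Uhrf1 in the 3 knockouts and below it in both controls, and Tet3 is lowest in every group.

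Ratios within a library were compared between each knockout and its control. These CPM were not divided by transcript length, so the sign of a ratio does not tell which transcript is more abundant. The sum of Dnmt3a and Dnmt3b likewise carries no weight for their lengths, and only differences between groups are read. The log2 ratio of Tet1 to Tet2 in CPM was -0.09 ± 0.067 in cMyc-KO against 1.51 ± 0.036 in WT-Myc (SD, n = 3 each), a difference of -1.60. In the Taf experiment it was 0.34 ± 0.055 in Taf5l-KO and 0.34 ± 0.058 in Taf6l-KO, against 0.22 ± 0.021 in WT-Taf. The log2 ratio of Dnmt3l to the sum of Dnmt3a and Dnmt3b was -0.23 ± 0.043 in Taf5l-KO and -0.36 ± 0.066 in Taf6l-KO, against -0.71 ± 0.086 in WT-Taf, and 1.45 ± 0.034 in cMyc-KO against 0.33 ± 0.037 in WT-Myc. The log2 ratio of Uhrf1 to Dnmt1 was 0.41 ± 0.031 in Taf5l-KO and 0.42 ± 0.045 in Taf6l-KO, against 0.61 ± 0.040 in WT-Taf, and 0.28 ± 0.032 in cMyc-KO against 0.26 ± 0.008 in WT-Myc. Apart from Uhrf1 to Dnmt1 in cMyc-KO (two-sided exact permutation p = 0.5), the groups named here did not overlap and gave p = 0.1 in that test, the smallest that 3 against 3 allows.

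Across the 15 libraries, with each experiment's mean removed, the gene most like Dnmt3l was Meis2, a homeobox factor (Pearson r = 0.986), which was higher by 2.01 in Taf5l-KO, 1.30 in Taf6l-KO and 1.65 in cMyc-KO on the log2 scale. The gene most like Tet1 was Ddx21 (r = 0.990), which lies in the stretch described above. Next was Ercc6, a repair factor (0.984), which was also lower in cMyc-KO (-0.91) and whose neighbours were not examined. Uhrf1 was most like Grb10, an imprinted adaptor (0.979), which fell by 1.40, 1.79 and 0.76 in Taf5l-KO, Taf6l-KO and cMyc-KO. The nearest genes to the others were Map4k1 for Dnmt3a (0.958), Fgfr1 for Dnmt3b (0.966), Aff1 for Tet2 (0.972), Shmt2 for Dnmt1 (0.945), Naca for Tdg (0.924) and snoU89 for Tet3 (0.891). Those next in likeness were Ptgfrn for Dnmt3l (0.983), Slc29a1 for Uhrf1 (0.978), Triobp for Dnmt3a (0.955), Cad for Dnmt3b (0.963), B2m for Tet2 (0.960), Hcn2 for Dnmt1 (0.944), Maff for Tdg (0.922) and Hist1h1c for Tet3 (0.835). Among the members, Dnmt1 and Uhrf1 varied together (r = 0.851), and Dnmt3b and Tet2 in opposite directions (r = -0.883). These values describe 15 points that share 5 groups, and the 10292 genes compared share the libraries.

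Genes that work with these enzymes were counted in lists, which were chosen with earlier results of these data known. Over all genes tested, 15.9% were called lower and 17.4% higher in Taf5l-KO, 18.2% and 19.1% in Taf6l-KO, and 19.5% and 15.2% in cMyc-KO, and nothing is read from a list's share that is near these. S-phase genes, which rise with DNA replication as Dnmt1 and Uhrf1 do, were lower in 15 of 20 in both Taf knockouts and higher in none, with median log2 fold changes of -0.17 in Taf5l-KO and -0.21 in Taf6l-KO, beside medians of 0.00 and 0.02 over all genes. Mcm6, a subunit of the replicative helicase, fell by 0.36 in Taf5l-KO and by 0.42 in Taf6l-KO, and Rrm2, a ribonucleotide reductase subunit, by 0.32 and 0.38. In cMyc-KO 5 of 20 were lower and 3 higher (median -0.005), and 3 were lower without a filter, with library totals and in limma. The 5 lower were also 3 without replicate 1 or 2 of cMyc-KO or replicate 1 or 3 of WT-Myc, and the 3 higher were 1 without replicate 2 or 3 of WT-Myc. Mcm6 (-0.14) and Rrm2 (-0.29) were among those lower in cMyc-KO. Of 10 partners of maintenance methylation, 3 were lower and 2 higher in Taf5l-KO, 6 lower and 2 higher in Taf6l-KO, and 1 lower and 2 higher in cMyc-KO (medians -0.03, -0.14 and 0.04). The 2 higher in Taf5l-KO became 0 without replicate 2 of WT-Taf. In cMyc-KO, 0 were lower and 1 higher without replicate 1 or 2 of either group, and 2 were lower without replicate 3 of cMyc-KO. Pcna, the replication clamp that recruits DNMT1, fell by 0.27 in Taf5l-KO and by 0.42 in Taf6l-KO and was at 0.13 in cMyc-KO (not called). Cdca7 fell by 0.23 in Taf5l-KO and by 0.33 in Taf6l-KO and was at -0.07 in cMyc-KO (not called). Rb1, a brake on entry into S phase, moved otherwise: it rose by 0.29 in Taf5l-KO and by 0.52 in Taf6l-KO, and was lower in cMyc-KO (-0.54). Genes beside Rb1 were not examined, so fewer copies and less RNA per copy in cMyc-KO cannot be told apart for it. How far Uhrf1 and Dnmt1 go with the share of cells in S phase was not tested.

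Of 18 regulators of de novo methylation, 5 were lower and 3 higher in Taf5l-KO, 8 lower and 3 higher in Taf6l-KO, and 5 lower and 6 higher in cMyc-KO (medians -0.02, -0.10 and 0.00). The 5 lower in cMyc-KO include Nodal (-1.29), which lies in the stretch around Tet1. They became 3 without replicate 1 or 2 of cMyc-KO or of WT-Myc, and the 8 lower in Taf6l-KO became 4 with library totals. Zfp57, which protects imprints, was lower in Taf5l-KO (-0.41) and Taf6l-KO (-0.36) and higher in cMyc-KO (0.38), and Zfp42, a marker of the naive state, followed the same signs (-0.36, -0.19 and 0.31). Otx2, a factor of the epiblast state that follows, rose by 1.10, 0.95 and 0.46 in Taf5l-KO, Taf6l-KO and cMyc-KO. The 9 matched epiblast markers summed to 117 to 121 CPM in Taf5l-KO and 105 to 110 in Taf6l-KO, against 115 to 118 in WT-Taf, and to 137 to 158 in cMyc-KO against 108 to 110 in WT-Myc. These markers did not move together. Of 6 tested, 2 were called higher and 2 lower in each Taf knockout, and of 7 tested in cMyc-KO 3 were higher and 3 lower. Their part in the de novo genes' differences was not tested.

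Of 15 tested TET partners and repair genes, 5 were lower and 2 higher in each Taf knockout (medians -0.05 in Taf5l-KO and 0.03 in Taf6l-KO). The 2 higher in Taf5l-KO became fewer under 15 of 16 other settings, with none in DESeq2 and without any 1 library. In cMyc-KO 4 of 16 were lower and 1 higher (median -0.13), or 2 higher without replicate 3 of cMyc-KO. Apex1, the endonuclease after TDG, fell by 0.15 in Taf5l-KO, by 0.23 in Taf6l-KO and by 0.69 in cMyc-KO. Ogt, a partner of TET proteins, fell by 0.23 and 0.22 in Taf5l-KO and Taf6l-KO and was at -0.03 in cMyc-KO (not called). Gadd45g, a stress gene linked to demethylation, was at 0.427 CPM in cMyc-KO against 2.05 in WT-Myc (-2.25) and was too low to test in the Taf experiment. Of 15 genes that supply or consume alpha-ketoglutarate, the TET cosubstrate, 6 were lower and 4 higher in Taf5l-KO, 9 and 4 in Taf6l-KO, and 7 and 1 in cMyc-KO (medians -0.05, -0.16 and -0.17). The 4 higher in Taf5l-KO became 1 without replicate 2 of Taf5l-KO or replicate 1 of WT-Taf, and 2 without replicate 3 of WT-Taf. The 1 higher in cMyc-KO became 2 without replicate 3 of cMyc-KO. Glud1, a mitochondrial dehydrogenase that makes it, was at 189 CPM in cMyc-KO against 469 in WT-Myc (-1.31). Genes beside Apex1 and Glud1 were not examined, so fewer copies and less RNA per copy in cMyc-KO cannot be told apart for them. Idh3g fell by 0.49 in Taf5l-KO and by 0.63 in Taf6l-KO and was at 0.11 in cMyc-KO (not called). Gpt2, an aminotransferase, fell by 0.29 and 0.55 in Taf5l-KO and Taf6l-KO, and was at -0.02 in cMyc-KO (not called). Of 11 tested genes for S-adenosylmethionine, the methyl donor, 2 were lower and 2 higher in Taf5l-KO, and 3 lower and 2 higher in both Taf6l-KO and cMyc-KO (medians 0.04, 0.01 and -0.05). In Taf6l-KO the 2 higher became 1 without replicate 2 of Taf6l-KO or replicate 2 or 3 of WT-Taf, and the 3 lower became 1 without replicate 1 of Taf6l-KO or replicate 2 of WT-Taf. The 2 higher in cMyc-KO became 0 without replicate 2 of cMyc-KO or any 1 WT-Myc library. Mtap, which salvages methionine, rose by 0.29 in Taf5l-KO and by 0.40 in Taf6l-KO, and was at 0.08 in cMyc-KO (not called). Mat2b, a subunit of the enzyme that makes the donor, was lower in Taf5l-KO (-0.28) and cMyc-KO (-0.52) and higher in Taf6l-KO (0.12). Ahcyl1 was lower in Taf6l-KO (-0.19), higher in cMyc-KO (0.19) and not called in Taf5l-KO (-0.07). Of 9 methyl-CpG binding proteins, 1 was lower and 4 higher in Taf5l-KO, 1 and 1 in Taf6l-KO, and 2 and 2 in cMyc-KO (medians 0.12, 0.06 and -0.04), with Zbtb38 higher by 0.42 in Taf5l-KO and 0.37 in Taf6l-KO. Zbtb38 was at -0.07 in cMyc-KO (not called). In limma none of the 9 was called higher in Taf5l-KO. The 1 lower in Taf5l-KO became 0 without replicate 2 of Taf5l-KO or of WT-Taf, and the 1 higher in Taf6l-KO became 2 without replicate 2 of Taf6l-KO or of WT-Taf. In cMyc-KO the 2 lower became 1 without any 1 library other than replicate 3 of cMyc-KO, and the 2 higher became 1 without replicate 2 of cMyc-KO or replicate 1 or 3 of WT-Myc. Mbd6 was higher in Taf5l-KO (0.29), lower in cMyc-KO (-0.30) and not called in Taf6l-KO (0.06).

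Germline genes whose promoters are known to be methylated in somatic cells were called lower more often than higher. Of 18 tested, 9 were lower and 2 higher in Taf5l-KO, 9 lower and 1 higher in Taf6l-KO, and 6 lower and 3 higher in cMyc-KO, with medians of -0.37, -0.37 and -0.15. Beside the shares over all genes given above, the counts of lower genes were larger in all 3 knockouts, and no test of the list was made. The list was chosen with earlier results of these data known, so its share cannot be read as that of an independent set. Sohlh2, a germ cell transcription factor, was at 24.9 CPM in Taf5l-KO and 22.8 in Taf6l-KO, against 44.97 in WT-Taf (-0.85 and -0.98), and at 5.80 in cMyc-KO against 9.81 in WT-Myc (-0.75). Tex11, a meiotic recombination gene, was lower by -1.13 in Taf5l-KO and -1.15 in Taf6l-KO, and was at -0.42 in cMyc-KO (not called). Rpl10l, a ribosomal protein retrogene, was higher in Taf5l-KO (0.22) and lower in Taf6l-KO (-0.15). It was at 111 CPM in cMyc-KO against 37.1 in WT-Myc (1.58), and its counts are uncertain because it resembles Rpl10. DNA methylation itself was not measured.

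**Figure D5:**
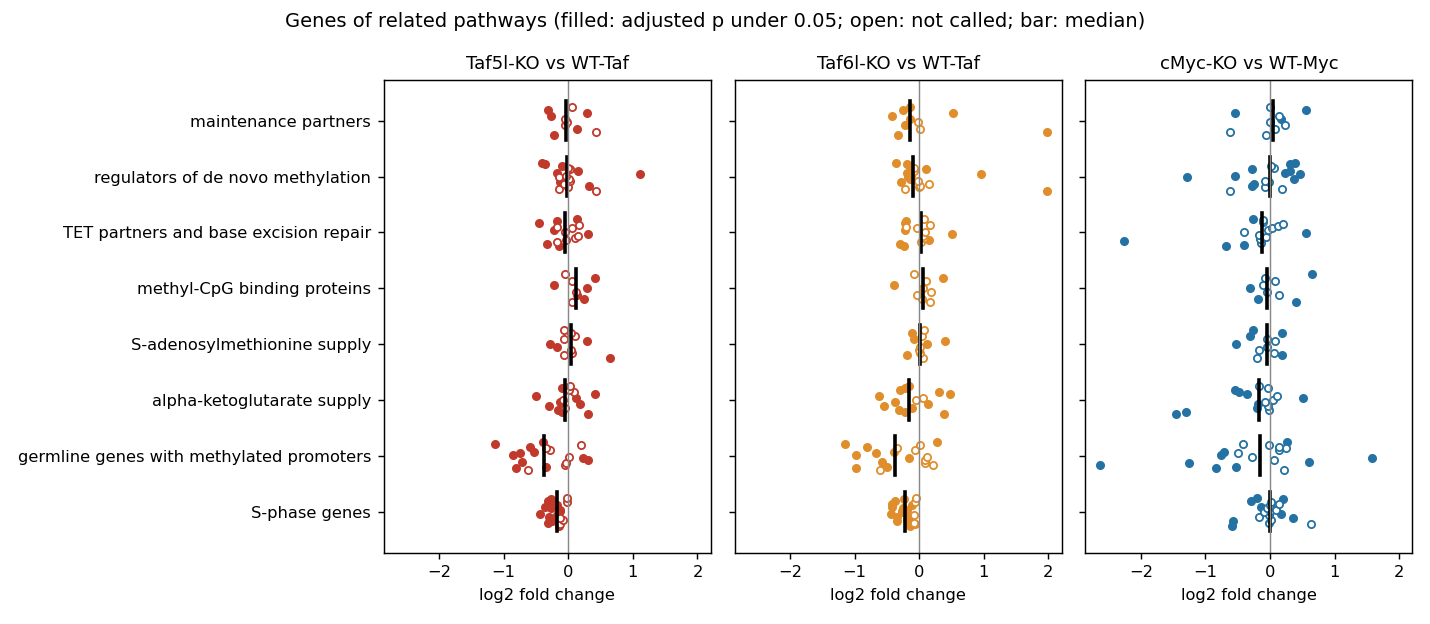
log2 fold change of the tested genes of 8 lists, knockout over wild type; filled points are called, and bars are list medians. Of the S-phase genes 15 of 20 are called lower in each Taf knockout, beside 5 of 20 in cMyc-KO.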

How the data were processed

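RNA was measured in 15 libraries. Ribosomal RNA was removed and directional libraries were made, per the labels' protocols. Tools named in the submitters' processing notes are Salmon 0.8.2 and DESeq2 1.14.1, with build mm9. Estimated counts, deposited by the authors as whole numbers, were tested without rounding. The authors' FPKM and their deposited normalized values, a depth-adjusted signal, served as alternatives. The authors' TPM table was not used, since its header has 3 names absent from the other tables, so none of its 15 columns was assigned.

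Groups follow the titles. Tests used edgeR 4.0.16 under R 4.3.3 (filterByExpr, TMM, glmQLFit, glmQLFTest), with the 9 libraries of the Taf experiment in 1 fit (biological coefficient of variation 4.23%), the 6 of the Myc experiment in another (10.2%) and all 15 for the difference of effects. The SE is the log2 fold change divided by the square root of F. CPM were scaled within each experiment, so levels were not compared between experiments. The procedure was run on simulated counts drawn with the spread fitted to these libraries, which cannot show whether the replicates are technical. The 9 genes and the gene lists were chosen with earlier results of these data known.

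FPKM imply lengths of 2.89% to 92.9% of the principal transcripts in GENCODE M21, so levels and ratios between genes use counts instead, a choice made after seeing the data. Gene order comes from GENCODE M21, matched by ID for 32620 genes (87.4%). Named genes were the 9 members, the targeted genes, up to 3 genes per list by smallest p and the nearest genes by correlation (mean of at least 100 counts, prior count 2); others named around Dnmt3l and Tet1, and the limits of the Tet1 stretch, were chosen after their values were seen. Cell type marker lists are given by counts and levels and not gene by gene, and 1 other gene that this rule names is not reported here. The alternatives comprised DESeq2 1.42.0, RLE or library-total scaling, omission of the filter, a replicate block, omission of each library, 1 fit of all libraries, only the groups compared, and limma 3.58.1 on log2(FPKM + 1) and log2(FPKM + 0.1) for a mean FPKM of at least 0.5. Added after seeing the data was limma on log2(normalized value + 1) for a mean of at least 10. Figures were drawn with Python 3.11.15.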

Additional observations from a re-analysis of the deposited data

Results flagged for a closer look

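Differences between knockout effects were called for these genes with edgeR's quasi-likelihood test, with Benjamini-Hochberg adjustment over all genes. Between Taf6l-KO and Taf5l-KO, the log2 difference was -0.33 for Dnmt3l (adjusted p = 2.45e-05), -0.29 for Dnmt3a (9.43e-05), -0.11 for Dnmt3b (0.0398), -0.10 for Dnmt1 (0.0367) and -0.094 for Uhrf1 (0.0307). In all 5 genes the 3 Taf6l-KO libraries lay below the 3 Taf5l-KO libraries, as for 34.7% of all genes tested in either direction.

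Between the mean Taf effect and the Myc effect, the difference was 1.02 for Tet1 (adjusted p = 3.79e-07), 0.57 for Dnmt3b (5.56e-06) and 0.42 for Dnmt3a (5.02e-05). It was -0.70 for Tet2 (7.04e-07), -0.22 for Uhrf1 (0.00211) and -0.21 for Tdg (0.0101). Dnmt3b and Tet2 moved in opposite directions in the Taf and Myc knockouts. The Tet1 value goes with a stretch of chromosome 10 whose median was -0.86 in cMyc-KO, and what the stretch contributes to it was not tested.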

How the results depend on the processing

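Of 702 values of the 45 member results under other settings, 614 kept their direction and side of the threshold, 58 lost a call, 2 gained one and 28 changed sign, the last all in values that were not called. Dnmt3l, Dnmt3a and Dnmt3b in Taf5l-KO, Uhrf1 and Tet2 in both Taf knockouts, Dnmt1, Dnmt3l and Dnmt3a in Taf6l-KO, and Tet1, Dnmt3l, Dnmt3b and Tet2 in cMyc-KO stayed called under every setting run. The number of genes called fell with limma on log2(FPKM + 1), log2(FPKM + 0.1) and normalized values to 2633, 2663 and 3477 in Taf5l-KO (5234 in the main test). With the FPKM settings it was 3118 and 3124 in Taf6l-KO (5861) and 3164 and 3173 in cMyc-KO (5064). With DESeq2 it was 1849 in Taf6l-KO against Taf5l-KO (2938). Without single libraries the lowest and highest counts were 4243 and 4751 (Taf5l-KO), 4933 and 5136 (Taf6l-KO), 3402 and 5923 (cMyc-KO), 2022 and 2634 between the Taf knockouts, and 5036 and 6278 between the Taf and Myc effects. With library totals 69.0% of Taf6l-KO calls were higher, against 51.2%. Same-numbered replicates did not vary together (r of deviations -0.083 to -0.001 in the Taf experiment and -0.255 to -0.028 in the Myc experiment), so they share only a number. With the replicate number as a block 3139 genes were called in cMyc-KO, with Dnmt1, Uhrf1 and Tdg not among them (adjusted p = 0.112, 0.154 and 0.111), and Dnmt1 was not called between the Taf knockouts (0.0504).

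The values that changed sign were Tet3 in Taf5l-KO (-0.034, -0.044 and -0.046 with limma on log2(FPKM + 1), log2(FPKM + 0.1) and normalized values), and Dnmt3a in cMyc-KO (-0.040 with all of these). Tdg in Taf6l-KO gave -0.0094 with RLE scaling, -0.0053 without a filter, -0.013 in DESeq2, -0.0085 with all 15 libraries and -0.011 with only the groups compared, and -0.028 to 0.018 without single libraries. Between the Taf knockouts, Tet2 (0.090) and Tdg (0.035) turned with library totals, Tet1 turned without a filter (-0.0015) and in DESeq2 (-0.0024), and without single libraries Tet1 ranged from -0.063 to 0.052 and Tet2 from -0.034 to 0.020. Between the Taf and Myc effects, Dnmt1 was at 0.0095 with library totals and -0.041 to 0.0087 without single libraries. The log2 ratio of Tet3 to Tet1 differed by 0.15 in Taf6l-KO in CPM, and by -0.05 in FPKM. 

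Of 48 counts of list members called, 27 moved by over 1.5 times under some setting. S-phase genes called lower stayed at 14 to 16 in Taf5l-KO and 12 to 17 in Taf6l-KO, and germline genes at 7 to 9 and 8 to 9. In cMyc-KO, S-phase genes called lower were 3 in 10 of 15 other settings, counting those without single libraries. Those higher were 5 with library totals, 6 with all libraries and 1 with the block and limma. Without single libraries 1 to 4 were higher and 3 to 5 lower. Over all settings, 0 to 4 TET partners, 0 to 3 genes of methyl donor supply, 1 to 5 of alpha-ketoglutarate supply, 0 to 3 maintenance partners and 0 to 4 methyl-CpG binders were called higher in a comparison, and the number called lower in any of these lists and the regulators was 0 to 9, the regulators of de novo methylation falling to 4 lower in Taf6l-KO with library totals and 2 in cMyc-KO with the block.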
